A study of Mus musculus with 2 samples.

Results

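The genes described here encode the subunits of the NMDA receptor: Grin1, Grin2a, Grin2b, Grin2c, Grin2d and Grin3a. They were chosen by symbol, and all 6 were found among the 31053 genes of the table. Expression was measured in single nuclei of male mouse medial prefrontal cortex collected at zeitgeber time 20, counted in hours from lights on, under 12 h of daily light. One library came from mice labelled as knockout for NPAS2, a clock transcription factor, and the other from wild-type littermates. Each library was a pool of tissue from 4 mice, so the spread between mice was not measured and there is no test of any difference between the libraries. The knockout allele, strain and age were not given in the sources used here.

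NMDA receptors are cation channels. The usual form opens only when glutamate and a co-agonist, glycine or D-serine, are bound while the membrane is depolarised enough to release a magnesium block. Every receptor contains GluN1, the product of Grin1, joined by GluN2 subunits, the products of Grin2a to Grin2d, or by GluN3 subunits. The GluN2 subunit sets how long the channel stays open and which signalling proteins it recruits. In the forebrain GluN2B is present from early development and GluN2A increases as the cortex matures.

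The libraries held 7161 nuclei in the knockout-labelled library and 5578 in the wild-type-labelled library, with estimated mean depths of 3274 molecules (unique molecular identifiers, UMIs) per nucleus in the knockout-labelled library and 4034 in the wild-type-labelled one. A level is a gene's count per 10000 counts of a nucleus, averaged over nuclei by the authors. Ranges in parentheses are 95% intervals for counting error only, computed from estimated UMI numbers. Npas2 itself had a level of 1.39 in the knockout-labelled library and 1.29 in the wild-type-labelled library. Which part of the gene was deleted was not given in the sources used here. A 3' tag outside that part checks nothing, so the genotype is named by the library's label throughout. The authors' 23 numbered clusters pool both libraries. They are described below by how many markers of a cell type were raised, meaning at least 2-fold above the median cluster with a level of at least 0.05. Cluster 6 raised 12 of 12 striatal spiny projection neuron markers and cluster 17 raised 5 of 5 olfactory bulb projection neuron markers, although the labelled tissue is cortex. An estimated 14.8% of the nuclei of cluster 6, 72.0% of cluster 17 and 81.3% of cluster 4 came from the knockout-labelled library, against 56.2% of all nuclei. These shares are uncertain. Another estimate, by a least squares fit, gave almost none of cluster 6, 93.2% of cluster 17 and 100% of cluster 4.

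Promoter windows were searched because NPAS2, with its partner BMAL1, binds the E-box CACGTG, and those of Grin1 and Grin2d are shown. A window runs from 250 bases before to 50 bases after the start in RefSeq (GRCm38.p6), and 3 of the 6 genes had one, on the minus strand in each case. The E-box occurs in 7.15% of the 32851 windows of this length, and 0.594% hold it more than once. The letters read the same on both strands. The window of Grin1 (chr2:25319138-25319437) held 2 matches, in capitals, beginning 181 and 85 bases before the start. The windows of Grin2c (chr11:115267194-115267493) and Grin2d (chr7:45866632-45866931) held none. That of Grin2d is shown for comparison as a gene counted as higher in the knockout-labelled library by the rule given below. Grin1 was higher there too, at a ratio of 1.09, but did not pass that rule. No window was available for Grin2a, Grin2b and Grin3a. The RefSeq start of Grin2d lies inside the span that GENCODE gives the gene. A match describes letters only and is not evidence of binding.
Grin1: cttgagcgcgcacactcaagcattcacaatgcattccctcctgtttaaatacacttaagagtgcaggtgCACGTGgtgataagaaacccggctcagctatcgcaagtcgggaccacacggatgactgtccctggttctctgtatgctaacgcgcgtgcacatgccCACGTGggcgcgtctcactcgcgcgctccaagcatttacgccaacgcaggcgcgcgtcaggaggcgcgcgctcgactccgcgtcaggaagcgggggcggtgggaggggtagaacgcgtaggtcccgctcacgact
Grin2d: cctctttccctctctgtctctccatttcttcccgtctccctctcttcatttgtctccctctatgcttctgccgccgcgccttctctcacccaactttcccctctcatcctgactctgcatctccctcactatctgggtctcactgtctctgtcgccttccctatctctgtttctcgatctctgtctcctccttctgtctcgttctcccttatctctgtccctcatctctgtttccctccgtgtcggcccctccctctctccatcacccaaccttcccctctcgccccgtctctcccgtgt

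Grin1 (ENSMUSG00000026959) lies on chromosome 2 at 25291181 to 25319187, minus strand, in mm10, and spans 28.0 kb. Grin2a (ENSMUSG00000059003, chromosome 16, 9567898 to 9995560) and Grin2b (ENSMUSG00000030209, chromosome 6, 135713233 to 136173511) are much longer genes, with spans of 428 and 460.3 kb and 14 exons each in the longest coding transcript. Grin2c (ENSMUSG00000020734, chromosome 11, 115249169 to 115267243) spans 18.1 kb and Grin2d (ENSMUSG00000002771, chromosome 7, 45831883 to 45878378) 46.5 kb. Grin3a (ENSMUSG00000039579, chromosome 4, 49661611 to 49845744) spans 184 kb. All are on the minus strand. The antisense gene Grin1os lies inside Grin1, and since use of strand in counting is not stated, reads of that pair cannot be told apart. The same holds for Grin2d with Kdelr1 and Gm45441 and for Grin2b with Gm14330 and Gm26653, which overlap them on the opposite strand. Ppp3r2 lies within Grin3a on the same strand, and its reads could likewise be split between the genes.

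Of the 6 subunit genes, 5 had a level, averaged over the libraries, above the floor of 0.0461, the median of all genes detected, and Grin2c did not. A gene was counted as higher at a level at least 25% above, and as lower at a level at least 20% below, that of the wild-type-labelled library, which is 0.32 in either direction on the log2 scale after 0.01 is added to each level. Grin2b and Grin2d were higher by this rule, 2 of 5, where the share was 9.46% among the 12003 genes over the floor. None of the 5 was lower, where the share was 19.3%. At a fold of 1.1 Grin2a was higher too, 3 of 5 against 23% of genes, and 0 of 5 were lower against 38.9%. At a fold of 2 none of the 5 was higher or lower, where 0.567% and 2.37% of genes were. The median log2 ratio (knockout over wild-type, pseudocount 0.01) was 0.25 over the 5 genes and -0.06 over all genes. Fewer nuclei of a type and less RNA per nucleus cannot be told apart in these library means.

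Grin1, the subunit that every receptor needs, had a level of 3.53 in the knockout-labelled library (3.44 to 3.62) and 3.23 in the wild-type-labelled library (3.14 to 3.32). The intervals did not overlap, and the ratio was 1.09 (1.05 to 1.13). Its antisense partner Grin1os had levels of 0.135 in the knockout-labelled library and 0.0992 in the wild-type-labelled one, with a ratio at 1.36 (1.11 to 1.68) from about 243 UMIs in the knockout-labelled library and 153 in the wild-type-labelled one.

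Grin2b showed the largest rise of the 6 in the knockout-labelled library. Its level was 16.2 there (16.0 to 16.4) and 12.0 in the wild-type-labelled library (11.8 to 12.1), so that the ratio was 1.35 (1.33 to 1.38), or 0.43 on the log2 scale. That log2 ratio lay above 94.4% of genes above the floor. Grin2a, the other main cortical GluN2 subunit, had levels of 8.32 in the knockout-labelled library (8.19 to 8.45) and 6.99 in the wild-type-labelled one (6.86 to 7.13), and its ratio was 1.19 (1.16 to 1.22). The intervals of the ratios of Grin2a and Grin2b were apart, with Grin2b higher.

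Grin2d, which encodes a subunit with slow closing known from forebrain interneurons, had a level of 0.151 in the knockout-labelled library (0.133 to 0.170) and 0.113 in the wild-type-labelled library (0.0970 to 0.131). Its ratio was 1.33 (1.1 to 1.62), on about 270 UMIs in the knockout-labelled library and 174 in the wild-type-labelled one. Grin2c, which encodes a subunit best known from the cerebellum, lay below the floor, with 0.0310 in the knockout-labelled library (0.0234 to 0.0403) and 0.0495 in the wild-type-labelled one (0.0390 to 0.0620). It was 1.60-fold lower (1.12 to 2.30) on about 56 UMIs in the knockout-labelled library and 76 in the wild-type-labelled one, and the intervals of its 2 levels overlapped. Grin3a, which encodes a subunit that lowers calcium entry, had 0.833 in the knockout-labelled library (0.791 to 0.876) and 0.782 in the wild-type-labelled one (0.739 to 0.828). Its ratio of 1.07 had an interval that held 1 (0.987 to 1.15).

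**Figure D1:**
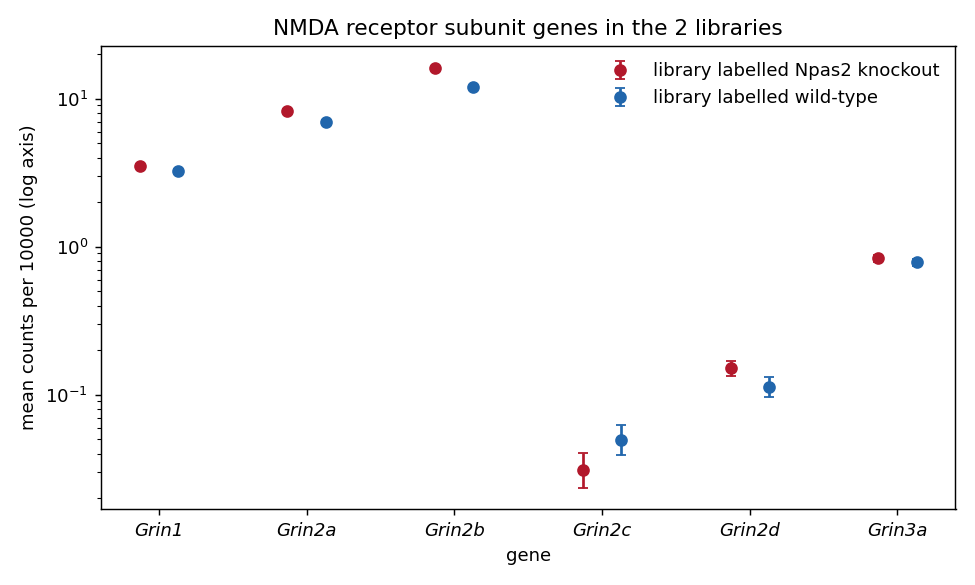
Levels of the 6 subunit genes (log axis, mean counts per 10000) in the knockout-labelled library (red) and the wild-type-labelled library (blue), with 95% counting intervals as bars. Grin2b stands at 16.2 in red and 12.0 in blue and Grin2d at 0.151 in red and 0.113 in blue, while Grin2c is the one gene with a lower level in the knockout-labelled library.

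The 2 libraries differed in how many nuclei fell into each cluster, so each ratio was set beside the one that the estimated nuclei per cluster alone would give, with equal cluster levels in both libraries. For Grin1 the expected log2 ratio was 0.12 against 0.13 observed, and for Grin3a it was 0.10 against 0.09. For Grin2c it was -0.58 against -0.54. Grin2a had 0.15 expected and 0.25 observed, Grin2d 0.12 and 0.38, and Grin2b 0.12 and 0.43. By this first estimate, nuclei per cluster alone would give 1.17 of the Grin2b difference of 4.2 between the libraries, which is 27.9%. They would give 0.777 of the Grin2a difference of 1.32, or 58.7%. These percentages depend on the estimate of nuclei. Nuclei per cluster from a least squares fit gave other expected log2 ratios, of 0.19 for Grin1, 0.20 for Grin2a, 0.18 for Grin2b and Grin2d, 0.24 for Grin3a and -1.18 for Grin2c, and left 0.64 for Grin2c after subtraction. Cluster levels pool both libraries, so the expected value also holds some of any change inside clusters. The log2 ratio left after subtraction by the first estimate was 0.32 for Grin2b, 0.26 for Grin2d and 0.10 for Grin2a. Each was under the threshold, with Grin2b at 0.315 against 0.322. By least squares, 0.26 was left for Grin2b, 0.20 for Grin2d and 0.046 for Grin2a.

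**Figure D2:**
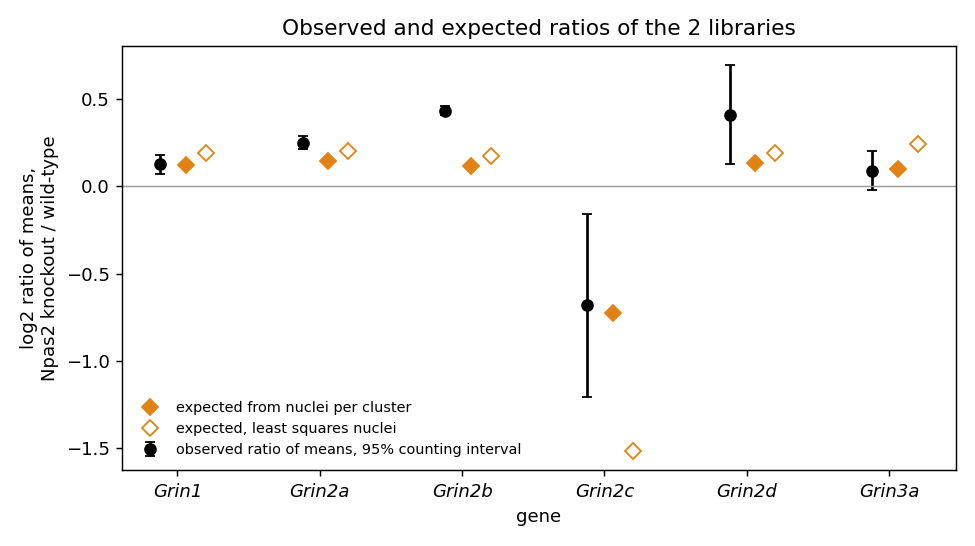
Log2 ratio of the means of the knockout-labelled library over the wild-type-labelled library, without pseudocount, for each subunit gene. Black points show the observed ratio with its 95% counting interval and orange diamonds the ratio expected from nuclei per cluster, filled from single-UMI values and open from a least squares fit. Grin2b, Grin2a, Grin2d and Grin2c lie above both expected values, although the intervals of Grin2d and Grin2c reach the filled diamond. Grin1 and Grin3a lie close to the filled diamond.

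Marker levels of several cell types also differed between the libraries. Of all genes above the floor, 9.46% were higher and 19.3% lower by the same rule. The 12 striatal spiny projection neuron markers summed to 10.1 in the knockout-labelled library and 13.6 in the wild-type-labelled library, and 10 of the 11 over the floor were lower. The 9 mature oligodendrocyte markers summed to 2.65 in the knockout-labelled library and 8.27 in the wild-type-labelled one (9 of 9 lower). The 9 astrocyte markers summed to 3.63 in the knockout-labelled library and 6.51 in the wild-type-labelled one (4 of 4 above the floor lower), and the 10 microglia markers to 2.42 in the knockout-labelled library and 4.16 in the wild-type-labelled one (8 of 9 lower). The 8 excitatory neuron markers summed to 7.90 in the knockout-labelled library and 7.16 in the wild-type-labelled one, with 1 higher and 1 lower, and the 7 inhibitory neuron markers to 19.4 in the knockout-labelled library and 16.2 in the wild-type-labelled one, with 3 higher and 1 lower. The 5 Vip interneuron markers summed to 12.4 in the knockout-labelled library and 9.35 in the wild-type-labelled one, with 2 of 4 higher, and the 5 olfactory bulb projection markers to 1.21 in the knockout-labelled library and 0.890 in the wild-type-labelled one, with 2 of 3 higher. The 5 Pvalb interneuron markers summed to 0.996 in the knockout-labelled library and 1.35 in the wild-type-labelled one (2 of 4 lower). The 8 oligodendrocyte precursor markers summed to 0.562 in the knockout-labelled library and 1.46 in the wild-type-labelled one (4 of 5 lower). The 4 Sst interneuron markers summed to 1.22 in the knockout-labelled library and 1.15 in the wild-type-labelled one (2 of 3 higher). No marker of these lists was at 0 in either library. Apart from the expected ratios above, their part in the subunit differences was not tested.

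The ratio was also described by gene span, a description added after the data were seen. The 563 genes above the floor that span at least 300 kb, among them Grin2a and Grin2b, had a median log2 ratio of 0.08, with 22.2% higher and 13.5% lower by the same rule. The 5958 genes under 30 kb, among them Grin1, had a median of -0.11, with 8.01% higher and 23.7% lower. Grin2d belonged to the 3791 genes of 30 to 100 kb, with a median of -0.04, 7.07% higher and 13.8% lower. Grin3a belonged to the 1679 genes of 100 to 300 kb, with a median of 0.003, 15.7% higher and 17.9% lower. Use of intronic reads was not given in the sources used here. What part gene span had in the subunit differences was not tested.

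The balance of Grin2a to Grin2b also differed between the libraries. The ratio of the Grin2a level to the Grin2b level was 0.514 in the knockout-labelled library (0.504 to 0.524) and 0.584 in the wild-type-labelled library (0.570 to 0.598). The quotient of the ratios was 0.880 (0.854 to 0.908). The nuclei per cluster would give 0.544 in the knockout-labelled library and 0.534 in the wild-type-labelled one, a quotient of 1.02 and so the opposite order. As a share of the summed Grin2a, Grin2b, Grin2c and Grin2d signal, Grin2b made up 65.6% in the knockout-labelled library and 62.6% in the wild-type-labelled one. Grin2a made up 33.7% in the knockout-labelled library and 36.6% in the wild-type-labelled one. The summed GluN2 signal stood at 6.99 times the Grin1 level in the knockout-labelled library and at 5.92 times in the wild-type-labelled library.

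These shares and multiples set genes of different length side by side and serve only to compare the libraries. Gene span need not cancel in that comparison. The median log2 ratio was 0.08 for genes of at least 300 kb, like Grin2a and Grin2b, and -0.11 for genes under 30 kb, like Grin1. What part span had in the multiples of Grin1 was not tested. A level per kb of gene span assumes that counts grow with span, which was not tested for these 3' tags. The order that follows holds for that measure only and is not one of RNA amounts. In level per kb of gene span, Grin1 came first with 0.126 in the knockout-labelled library and 0.115 in the wild-type-labelled library. In the knockout-labelled library Grin2b followed with 0.0352, then Grin2a with 0.0195, Grin3a with 0.00452, Grin2d with 0.00324 and Grin2c with 0.00171. In the wild-type-labelled library Grin2b had 0.0260, Grin2a 0.0164, Grin3a 0.00425, Grin2c 0.00274 and Grin2d 0.00243. The last 2 genes rest on few UMIs, and their order was not tested.

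Across clusters, the level of Grin1 was highest in cluster 4 at 5.14 (4.82 to 5.48). That cluster raised 6 of 7 inhibitory neuron and 5 of 8 neuroblast or dividing cell markers and was led by Dnah11, Adamts19 and Vipr2. Clusters 2, 1 and 6 followed with 4.23, 4.2 and 4.02, and their intervals overlapped. Cluster 2 raised 4 of 4 layer 6 markers, cluster 1 raised 4 of 5 upper layer markers, and cluster 6 raised 12 of 12 striatal markers. The interval of cluster 4 lay above that of the next cluster, while 20 of the 22 pairs of neighbours in the order overlapped. Clusters with 7 of 7 inhibitory markers raised lay below the level over all nuclei, at 2.96 in cluster 13, 2.88 in cluster 9, 2.75 in cluster 11, 2.56 in cluster 12 and 1.81 in cluster 10, where all nuclei had 3.4. Cluster 18, with microglia markers, had 1.9. The lowest levels were 0.722 in cluster 8 (9 of 9 mature oligodendrocyte markers), 0.633 in cluster 14 (9 of 9 astrocyte and 7 of 8 endothelial markers) and 0.234 in cluster 22, which held 20 nuclei and about 1 UMI of Grin1. Cluster 14 also raised 8 of 10 microglia, 7 of 9 mature oligodendrocyte and 6 of 8 oligodendrocyte precursor markers. Its median astrocyte marker stood at 25.8 times the level over all nuclei and its median endothelial marker at 19.7 times. The median was 1.82 for microglia, 0.871 for mature oligodendrocyte and 1.55 for precursor markers.

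Grin2a was highest in cluster 15 at 11.7 (10.8 to 12.7), which raised 4 of 8 excitatory and 3 of 4 layer 6 markers, and in cluster 12 at 11.0 (10.3 to 11.7), which raised 7 of 7 inhibitory and 4 of 5 Vip interneuron markers. These intervals overlapped, as did that of cluster 5, at 10.5 (10.1 to 10.9), with cluster 12. It was lower in cluster 9, at 4.43 (4.06 to 4.82), which raised 7 of 7 inhibitory and 5 of 5 Pvalb interneuron markers, and in cluster 16, at 3.6 (3.22 to 4.03). Cluster 10, with 8 of 8 neuroblast or dividing cell markers raised, had 1.91 (1.59 to 2.28), and cluster 17, led by Olfr111, Olfr115 and Ebf1, had 1.59 (1.24 to 2.01).

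Grin2b was highest in cluster 3 at 19.8 (19.4 to 20.3), led by Ndst4 and Tfap2d, and in cluster 1 at 19.4 (19 to 19.7), and these intervals overlapped. The median cluster level was 13.5. Cluster 6 had 13.9, cluster 12 had 13.5 and cluster 13 had 12.7. Cluster 15, where Grin2a was highest, had 10.7 (9.87 to 11.6), and cluster 10 had 7.63 (6.97 to 8.33).

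The 4 highest levels of Grin2d were in cluster 12 at 0.523 (0.385 to 0.694), cluster 13 at 0.341 (0.245 to 0.462), cluster 9 at 0.279 (0.193 to 0.391) and cluster 11 at 0.231 (0.150 to 0.339), each a cluster with 7 of 7 inhibitory markers raised. Cluster 21, with 1 of 7, came next at 0.221 on about 3 UMIs (0.0369 to 0.705). Cluster 10, also with 7 of 7, had 0.184 (0.0950 to 0.323), and cluster 4, with 6 of 7, had 0.169 (0.114 to 0.240). Cluster 6, with 5 of 7, had 0.0877 (0.0517 to 0.139). Neighbours in this order overlapped in all 22 pairs, so only distant clusters stood apart. Cluster 0, the largest, had 0.0964 (0.0741 to 0.123), and cluster 5 had 0.0441 (0.0236 to 0.0750). Cluster 20 held no Grin2d UMI, which allows a level of up to 0.146, and cluster 22 none, which allows up to 0.919.

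Grin3a was concentrated in cluster 13, with a level of 9.17 (8.64 to 9.72), which was 11.3 times its level over all nuclei and 33.3% of its signal in 2.94% of the nuclei. That cluster raised 7 of 7 inhibitory and 3 of 4 Sst interneuron markers. The next level was 3.89 (3.25 to 4.61) in cluster 19, which raised 8 of 8 oligodendrocyte precursor and 9 of 9 mature oligodendrocyte markers. Cluster 20 had 2.39 (1.77 to 3.16), and cluster 11, which raised 4 of 4 Sst interneuron markers, had 1.52 (1.3 to 1.77). The intervals of clusters 13 and 19 lay apart from each other and from the next cluster. Grin3a was low in cluster 6, at 0.0844 (0.0492 to 0.135), and in cluster 2, at 0.0682 (0.0436 to 0.102).

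Grin2c was concentrated in cluster 14, the cluster with astrocyte and endothelial markers, at 1.04 (0.730 to 1.44). That was 26.6 times its level over all nuclei and 56.4% of its signal, on about 37 UMIs. Cluster 10 had 0.236 (0.133 to 0.388) on about 15 UMIs, cluster 17 had 0.151 (0.0587 to 0.317) on about 7, and the next level, in cluster 9, was 0.0524. Grin2c was at 0 in 6 clusters, among them cluster 13, where 0 UMIs allow a level of up to 0.0249, and cluster 8, where they allow up to 0.0476. Of the nuclei of cluster 14, an estimated 29.8% came from the knockout-labelled library, against 56.2% of all nuclei. The least squares fit gave 6.55% for cluster 14.

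**Figure D3:**
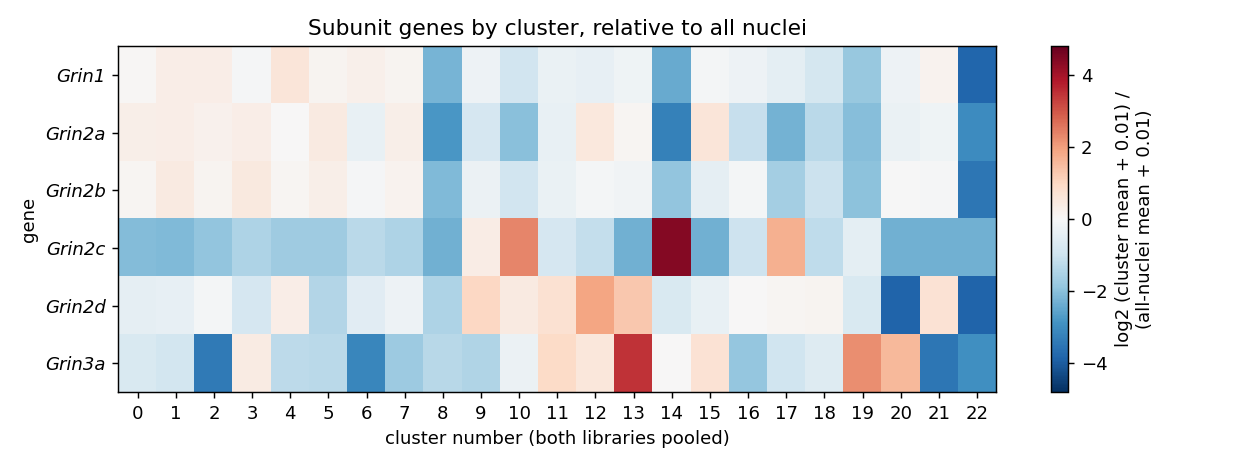
Level of each subunit gene (rows) in each of the 23 clusters (columns), as the log2 ratio to its level over all nuclei with 0.01 added to both, red above and blue below. Grin3a stands out in clusters 13, 19 and 20, Grin2c in clusters 14, 10 and 17, and Grin2d in clusters 12 and 13, whereas Grin1, Grin2a and Grin2b are low in clusters 8, 14, 19 and 22.

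Signal of Grin1, Grin2a and Grin2b in glial clusters was no higher than that of neuronal marker genes there. In cluster 18, with 10 of 10 microglia markers, the 3 genes stood at 0.559, 0.412 and 0.495 of their level over all nuclei, where the median of the 8 excitatory neuron markers was 0.709. In cluster 8 they stood at 0.212, 0.143 and 0.228, where that median was 0.614. The ratio of Grin2a to Grin2b was 0.339 in cluster 8 (0.254 to 0.446) and 0.449 in cluster 18 (0.337 to 0.594), against 0.540 over all nuclei. The part of free RNA in these levels was not tested. Grin3a in cluster 19 stood at 4.8 times its level over all nuclei, where the median of the excitatory markers was 0.442.

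The ratio of Grin2a to Grin2b was compared between clusters, where effects of gene length and capture cancel if they are the same in every cluster. Whether they were the same was not tested. It ran from 0.210 in cluster 14 (0.135 to 0.316) to 1.09 in cluster 15 (0.978 to 1.23), with a median of 0.501 over the 23 clusters. The value of cluster 14 rests on low levels, with about 29 UMIs of Grin2a, and the next lowest was 0.25 in cluster 10. Cluster 12 followed with 0.814 (0.748 to 0.886), apart from cluster 15 above it and from cluster 13 below it, at 0.641 (0.591 to 0.695). Cluster 22 lay between, at 0.729, with fewer than 10 UMIs of either gene.

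Clusters of one broad class differed in this ratio. Both clusters 2 and 16 raised 4 of 4 layer 6 markers, yet the ratio was 0.575 (0.550 to 0.601) in cluster 2 and 0.267 (0.235 to 0.303) in cluster 16. Grin2a had levels of 9.02 and 3.6 in these clusters, and Grin2b had 15.7 and 13.5. Among clusters with 7 of 7 inhibitory markers the ratio was 0.814 in cluster 12, 0.641 in cluster 13, 0.521 in cluster 11 (0.473 to 0.572), 0.377 in cluster 9 (0.341 to 0.417) and 0.25 in cluster 10 (0.204 to 0.306). Neighbours in that order did not overlap. Cluster 10, the lowest of them, also raised 8 of 8 neuroblast or dividing cell markers. The large clusters 0, 5, 7 and 2 lay between 0.575 and 0.614, and clusters 1 and 3 at 0.501 (0.485 to 0.518) and 0.489 (0.470 to 0.509), whose intervals overlapped. Cluster 6 had 0.440 (0.411 to 0.470).

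**Figure D4:**
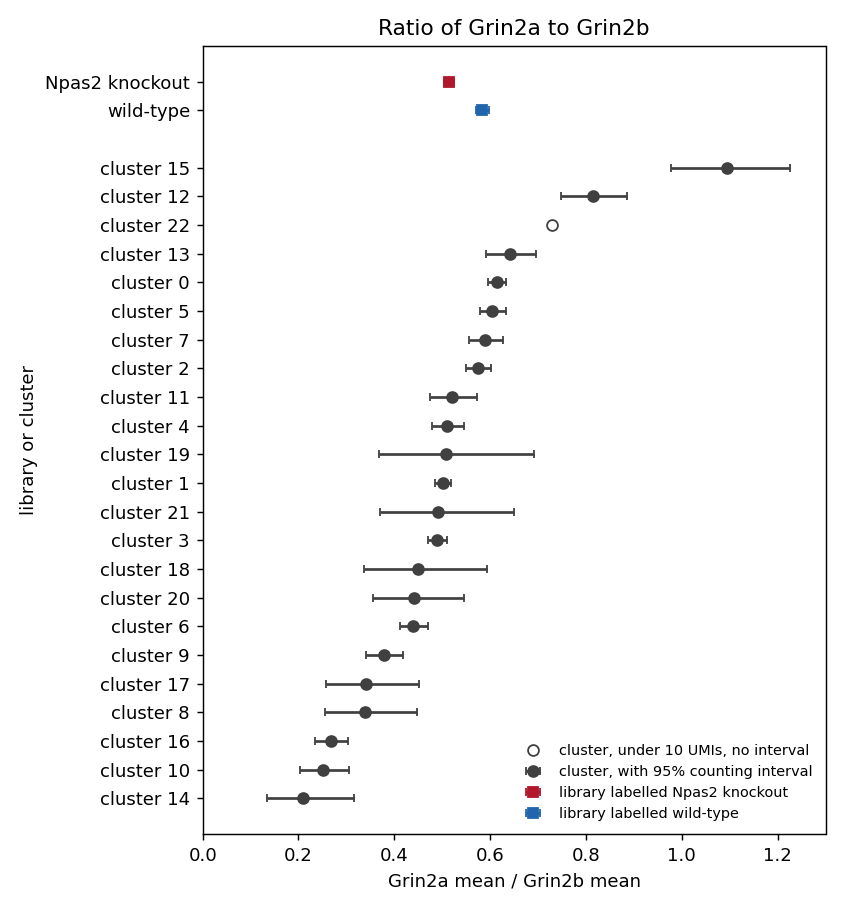
Ratio of the Grin2a level to the Grin2b level in each library (squares, knockout above wild-type) and each cluster (circles, sorted), with 95% counting intervals. Cluster 15 at 1.09 and cluster 12 at 0.814 lie to the right, and clusters 16, 10 and 14 lie to the left, at 0.267, 0.25 and 0.210.

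Over the 21 clusters with at least 50 nuclei, Grin1, Grin2a and Grin2b varied together. Pearson's r of their log2 levels was 0.90 for Grin1 with Grin2b, 0.86 for Grin1 with Grin2a and 0.91 for Grin2a with Grin2b. Grin2c ran the other way, with r of -0.70 to Grin2a, and Grin2d and Grin3a had r between -0.29 and 0.15 with Grin1, Grin2a and Grin2b. These are descriptions, since the clusters share libraries and differ in depth.

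The genes whose pattern over these clusters was most like each subunit gene above the floor were found by Pearson's r. They were Trank1 (0.95), Add2 (0.91) and Ksr2 (0.91) for Grin1. Tenm2 and Dlgap2 were among the 3 nearest to Grin2a, with r of 0.88 and 0.87. Klhl29, Dlgap2 and Svop were nearest to Grin2b, with r of 0.92, 0.92 and 0.91, so that Dlgap2, a postsynaptic scaffold gene, was shared by both. Grin2d had Grip1os1 (0.88), Brd3 (0.84) and Pnma3 (0.84), and Grin3a had Timm50 (0.75), Camk2n2 (0.74) and Elfn1 (0.69), the last a gene on the Sst interneuron list. By Spearman's rho, 1 of the 3 was shared for Grin1, 2 for Grin3a and 0 for Grin2a, Grin2b and Grin2d.

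Genes that act with the receptor were described from 4 lists and 1 further subunit gene. Of 62 listed genes above the floor, 10 were higher in the knockout-labelled library and 12 lower by the same rule, against 9.46% and 19.3% of all genes. Grin3b, the remaining subunit gene, lay below the floor, at 0.00543 in the knockout-labelled library and 0.00343 in the wild-type-labelled library on about 10 knockout-labelled and 5 wild-type-labelled UMIs, with a ratio of 1.58 (0.498 to 5.72).

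Scaffold genes of the postsynaptic density had a median log2 ratio of 0.15 over 19 genes. Of these 3 were higher and 1 lower, against 9.46% and 19.3% of all genes. Homer2 had the largest rise, with 0.659 in the knockout-labelled library and 0.423 in the wild-type-labelled library, a ratio of 1.56 (1.41 to 1.72), with 0.36 expected and 0.63 observed on the log2 scale. Actn2, an actin-binding protein, had the largest fall, to 0.226 in the knockout-labelled library, against 0.299 in the wild-type-labelled one, 1.33-fold lower (1.16 to 1.52), and cluster 6 was its leading cluster, with 28.4% of its signal. Its expected log2 ratio was -0.35 against -0.39 observed. Dlg4, which encodes PSD-95, the scaffold that binds GluN2 tails, had a ratio of 1.11 (1.01 to 1.22).

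Signalling genes had a median of 0.09 over 24 genes, with 4 higher and 3 lower, against 9.46% and 19.3% of all genes. Nos1, the neuronal nitric oxide synthase tethered to the receptor through PSD-95, had 0.191 in the knockout-labelled library and 0.0860 in the wild-type-labelled library, a ratio of 2.22 (1.81 to 2.73), against an expected log2 ratio of 0.19. Camk2a, the kinase that binds GluN2B, had a ratio of 1.22 (1.17 to 1.27), under the threshold. Ppp3r1, a regulatory subunit of calcineurin, had 0.406 in the knockout-labelled library and 0.621 in the wild-type-labelled one and was 1.53-fold lower (1.39 to 1.68), with -0.13 expected and -0.60 observed on the log2 scale.

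Auxiliary and adhesion partners had a median of 0.01 over 10 genes, with 3 higher and 2 lower, against 9.46% and 19.3% of all genes. Lrfn2, an adhesion protein of excitatory synapses, had the largest rise, with 1.28 in the knockout-labelled library and 0.752 in the wild-type-labelled one and a ratio of 1.70 (1.58 to 1.83), where the log2 ratio was 0.16 expected and 0.76 observed. Ephb1, an ephrin receptor, had 0.630 in the knockout-labelled library and 1.02 in the wild-type-labelled one and was 1.62-fold lower (1.5 to 1.75), with 15.5% of its signal in cluster 8. Its expected log2 ratio was -0.48 against -0.69 observed.

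Genes of co-agonist supply had the lowest median of the lists. It was -0.55 over 9 genes above the floor, with 0 higher and 6 lower, against 9.46% and 19.3% of all genes. Nuclei per cluster alone gave an expected median of -0.22. Slc7a10, a transporter of glycine and D-serine, had 0.0325 in the knockout-labelled library and 0.106 in the wild-type-labelled library and was 3.25-fold lower (2.39 to 4.46). Cluster 14 held 73.5% of its signal, and its expected log2 ratio was -1.07 against -1.44 observed. Slc38a1, a glutamine transporter, had the highest ratio of the list at 1.15 (1.05 to 1.26), and Srr, the serine racemase that makes D-serine, had 1.1 (1.02 to 1.19). The astrocyte and oligodendrocyte marker sums given above were also lower in the knockout-labelled library, and beyond the expected ratios their part was not tested.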

How the data were processed

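Single nuclei of 2 libraries, 1 per genotype and each a pool of 4 mice, were profiled with 10x Genomics 3' chemistry, per the labels' protocols. The build was mm10, per the submitters' processing notes. The aligner, counting, filters on nuclei, treatment of doublets and clustering were not given in the sources used here. Linear signal values, averaged over nuclei, were deposited by the authors for each library and for 23 clusters, per the file headers. Each column summed to 10000 over 31053 genes, so the table holds no counts, and the planned intervals rest on estimated UMIs.

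Numbers of nuclei were solved from the identity between weighted library and cluster columns, to within 3.3e-05 of whole numbers. Values that were 1 UMI in 1 nucleus (9336, within 0.0001 of a whole depth, from 4154 of 7339 genes searched) gave depths and the nuclei of each library per cluster. UMI numbers in the intervals are reduced for the spread of depth, by the harmonic mean (2506 in the knockout-labelled library and 2760 in the wild-type-labelled one). Intervals were Clopper-Pearson for ratios, exact Poisson for levels and log-normal for the quotient of the Grin2a to Grin2b ratios of the libraries. Where 3 UMIs are the limit that a count of 0 allows, the level is 0.00167 in the knockout-labelled library and 0.00195 in the wild-type-labelled one. The floor was the median level of the 24005 genes above 0. Scripts were tested on simulated data. Spans came from GENCODE M21 on the same build, for the table's gene identifiers.

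The subunit genes and all lists were chosen with earlier results of these data known. Named genes were every subunit gene, the 3 genes most like each one above the floor, the largest rise and fall of each list, and Dlg4, Camk2a, Srr, Grin3b and Npas2. Some genes that this rule names are not reported here. Alternatives covered the pseudocount, scaling, floor, fold, gene length, cluster size and the estimate of nuclei. Python 3.11.15, NumPy 2.4.6, pandas 2.3.3 and SciPy 1.17.1 were used.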

Additional observations from a re-analysis of the deposited data

How the results depend on the processing

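No paired analysis was possible because each genotype had 1 library, and no library could be left out. The number of subunit genes counted as higher, 2 as reported, was 1 with a pseudocount of 0.1, 1 with a pseudocount of 1, 0 at a fold of 2 and 0 after subtraction of the expected log2 ratio by either estimate of nuclei. The number lower, 0 as reported, was 1 without the floor. For the other receptor genes, 10 higher and 12 lower as reported became 2 and 1 with a pseudocount of 1. At a fold of 2 they became 1 and 2 of 62, where 0.567% of all genes were higher and 2.37% lower. At a fold of 1.1 they became 26 and 18 of 62, where 23% of all genes were higher and 38.9% lower. Per kb of gene length the Grin2b share was 59.0% in the knockout-labelled library and 54.7% in the wild-type-labelled library. With nuclei from least squares, a step whose use for subtraction was chosen after seeing the data, the expected log2 ratios were 0.19 for Grin1, 0.20 for Grin2a, 0.18 for Grin2b, -1.18 for Grin2c and 0.24 for Grin3a. Grin2c then turned from -0.54 to 0.64 after subtraction, and to 0.037 with the reported nuclei. Cluster 14, with 56.4% of the Grin2c signal, had 6.55% of its nuclei in the knockout-labelled library by least squares and 29.8% as reported. What part this had in the turn was not tested. Log2 ratios over the alternatives lay between 0.26 and 0.495 for Grin2b and between 0.046 and 0.31 for Grin2a. Those of Grin1 and Grin3a were -0.065 and -0.15 after subtraction with least squares. Depth limits Grin2c and Grin2d most.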

Other observations

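The summed GluN2 signal relative to Grin1 also differed between clusters. It was 9.78 in cluster 12 and 9.16 in cluster 3, and 4.5 in cluster 4 and 2.65 in cluster 17, against 6.99 in the knockout-labelled library and 5.92 in the wild-type-labelled one. The ratio of Grin3a to Grin1 was highest in 3 clusters, at 4.06 in cluster 19, 3.09 in cluster 13 and 1.31 in cluster 14. In clusters 19 and 14 the Grin1 level under the ratio was low, on about 32 and 22 UMIs. Both ratios set genes of different length side by side and are meant for comparison between clusters only.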
